A study of Arabidopsis thaliana with 6 samples.

Results

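PR-1-LIKE (AT2G19990) and 9 related Arabidopsis genes of the CAP group were followed after a synthetic compound was given to whole seedlings. The 10 loci were listed by name, and a gene counted as measured where the array had a probe set that the platform annotation ties to that gene alone. That held for 9 of the 10, out of 13513 such single-gene probe sets and 22746 probe sets tested in all. AT5G57625 had no single-gene probe set in that annotation and was not analysed here. The list was chosen on the values of the same arrays, around PR-1-LIKE as one of the largest rises with the compound, so the treatment values of the 9 genes are a description, and the calls printed beside them support nothing further.

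Both groups were pooled whole seedlings of Arabidopsis thaliana, ecotype Columbia 0, grown in wells that held half-strength Murashige and Skoog medium. The compound group received, at an age of 7 days, 5 µM of an anilide of 2-(2,4-dichlorophenoxy)propanoic acid whose ring bears isobutyrylamino and methoxy groups, and the DMSO group received the solvent alone in equal amount. RNA was taken 24 h later. Each group held 3 samples that their titles call biological replicates, numbered 1 to 3 in both groups, and each sample pooled the seedlings of 24 wells sown with 5 seeds each. Nothing else differed between the groups by their labels, and 1 dose and 1 time were measured. RNA was read on the Affymetrix ATH1 array. By its title the study is about auxin signalling and the cell death that follows photorespiratory hydrogen peroxide. The synthetic auxin 2,4-D has the same dichlorophenoxy group as the compound.

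CAP proteins are named after cysteine-rich secretory proteins, antigen 5 and pathogenesis-related protein 1. Most carry a signal for secretion and share a compact, disulfide-bonded domain. The founding plant member, PR1, is the classic transcript marker of salicylic acid signalling in infected leaves, while PRB1, its basic relative, is known to respond to ethylene and jasmonate. For most other Arabidopsis members, those listed here included, no role was assumed beyond membership of the family. PR1 and PRB1 had no single-gene probe set in the annotation used and were not analysed here.

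Of the 9 measured genes, PR-1-LIKE and its near neighbour AT2G19970 were 3.09-fold and 3.64-fold higher with the compound than with DMSO. AT4G30320 and AT4G33730 were 4.34-fold and 2.98-fold lower. The other 5 lay between -0.53 and 0.03 as log2 fold changes. The direction was therefore not common to the family: the highest and the lowest log2 fold changes among the 9 were 1.86 and -2.12, and their median was -0.40, where the median of all 22746 probe sets was 0.01. Over the 22746, 0.404% of probe sets were at least 2-fold higher and 0.514% at least 2-fold lower.

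A gene was called where its Benjamini-Hochberg adjusted p, from limma over all 22746 probe sets, was below 0.05. Arrays with the same replicate number deviated together from their group means, so each fit was made without and with the replicate number as a block. Without the block, limma called 1 of the 9 genes up (PR-1-LIKE) and 0 down, where it called 0.343% of all probe sets, 0.119% up and 0.224% down. The unadjusted p was below 0.05 for 4 of the 9, and for 5.36% of all probe sets. With the block, 2 were called up (PR-1-LIKE and AT2G19970) and 2 down (AT4G30320 and AT4G33730), where 3.8% of all probe sets were called, 1.83% up and 1.97% down. Because the list was made with these arrays in view, nothing is read from the members' share against that background.

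PR-1-LIKE was read by probe set 265586_at. Its log2 RMA values were 8.61, 8.19 and 8.63 on compound arrays 1, 2 and 3, against 6.47, 7.02 and 7.06 on DMSO arrays 1, 2 and 3. All compound arrays lay above all DMSO arrays, with a gap of 1.13 between the groups. The means were 8.48 ± 0.25 with the compound and 6.85 ± 0.33 with DMSO (SD, n = 3 each), and the difference of 1.63 ranked 21st from the top among the 22746 probe sets. Its moderated standard error was 0.20 and its 95% interval 1.14 to 2.11. Within replicate numbers 1, 2 and 3 the differences were 2.15, 1.17 and 1.57, so every pair moved the same way and the second moved least. The adjusted p of limma was 0.0415 without the block and 0.00419 with it. Without the block the call was lost whichever array was left out (adjusted p from 0.0586 without DMSO replicate 1 to 0.225 without compound replicate 3), while the measured rise stayed between 2.71-fold and 3.42-fold. Those fits called few probe sets of any gene: 0 without any 1 compound array, and 76, 40 and 1 without DMSO replicates 1, 2 and 3. In fits with the block that left out both arrays of a number, limma called 516, 743 and 205 probe sets for replicates 1, 2 and 3, and PR-1-LIKE missed the threshold without replicate 3 (adjusted p = 0.0573).

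**Figure D1:**
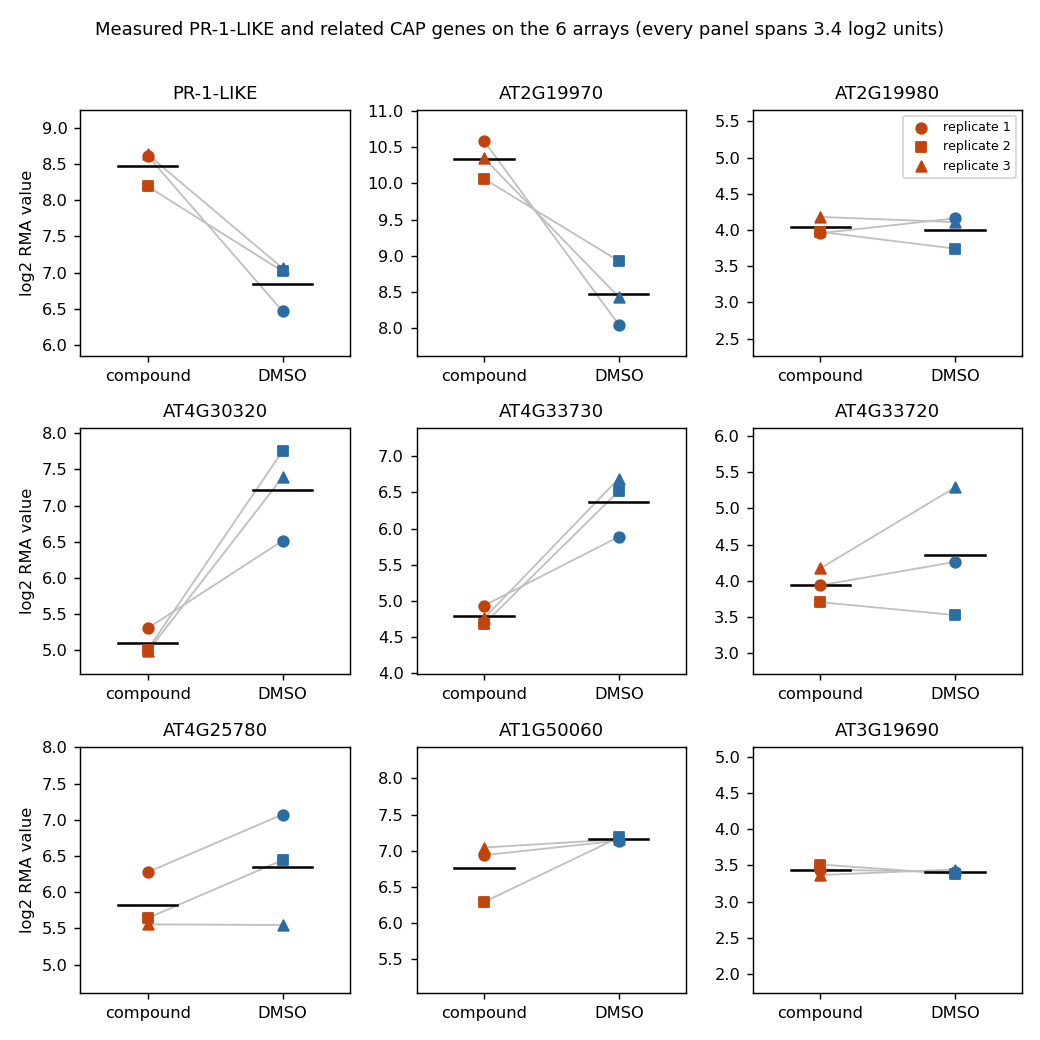
Log2 RMA values (vertical axis) of the 9 measured genes on the compound arrays (left, orange) and DMSO arrays (right, blue). Marker shapes are replicate numbers, grey lines join arrays of the same number, and black bars are means of 3 arrays. PR-1-LIKE and AT2G19970 sit higher with the compound on all arrays, AT4G30320 and AT4G33730 sit lower, and AT3G19690 is level near 3.4.

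AT2G19970, which 1 gene separates from PR-1-LIKE on chromosome 2, showed the other large rise. Probe set 265588_at read 10.59, 10.07 and 10.35 on the compound arrays, against 8.05, 8.93 and 8.43 on the DMSO arrays. The groups were again fully apart, by 1.13. The means were 10.33 ± 0.26 with the compound and 8.47 ± 0.44 with DMSO (SD, n = 3 each). The log2 fold change of 1.86 (SE 0.24, 95% interval 1.28 to 2.45) was the 9th from the top of all probe sets. Limma gave it an adjusted p of 0.0513 without the block, just above the threshold, and of 0.00819 with it. Without the block, leaving out DMSO replicate 2 brought it to an adjusted p of 0.0496 in limma, and leaving out any other array gave 0.0862 to 0.260. With the block and without replicate 3 in both groups it was not called (adjusted p = 0.0945 in limma). Over the 6 single arrays left out it stayed between 3.15-fold and 4.27-fold higher.

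As measured, PR-1-LIKE rose 3.09-fold and AT2G19970 rose 3.64-fold. Within replicate numbers, AT2G19970 differed by 2.54, 1.13 and 1.92, so for both genes replicate 1 gave the widest difference and replicate 2 the narrowest. The difference of AT2G19970 exceeded that of PR-1-LIKE by 0.39 in replicate 1 and 0.35 in replicate 3, and fell short of it in replicate 2 (a difference of -0.04). The mean excess was 0.23, with an SD of 0.24 over the 3 pairs. An exact two-sided permutation test that shuffled the arrays without regard to replicate number gave p = 0.3, where 0.1 was the smallest possible. That p does not refer to the SD of the pairs. Since the smallest possible p lay above the threshold used for the calls and the pairing was left out, the test could not decide whether the rises differed. Nothing is read from it, and it does not show that the rises were equal.

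AT2G19980 lies between these genes, with no other gene of the annotation table on either side, and did not show the rise. Its probe set, 265587_at, read 3.96, 3.97 and 4.18 with the compound, against 4.16, 3.74 and 4.11 with DMSO. The groups overlapped, and the log2 fold change was 0.03 (SE 0.14, 95% interval -0.30 to 0.37). On 3 of the 6 arrays the value lay below the lower quartile of the array, which ran from 3.95 to 4.06. Values that low cannot be separated from background, so a small change could go unseen. Whether transcripts of the neighbours bind each other's probes was not tested, since sequences were not used here. The 3 probe sets carry the plain suffix that the array design gives to probes meant for a single transcript.

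Of the remaining members, AT4G30320 on chromosome 4 was the furthest down. Probe set 253613_at gave 5.31, 5.01 and 4.99 with the compound, against 6.51, 7.75 and 7.39 with DMSO. No compound array reached the lowest DMSO array, and the gap was 1.21. The means were 5.10 ± 0.18 with the compound and 7.22 ± 0.64 with DMSO (SD, n = 3 each). This difference of -2.12 (SE 0.31, 95% interval -2.86 to -1.38) was the 24th lowest of all probe sets. Within replicate numbers 1, 2 and 3 the differences were -1.21, -2.74 and -2.41, and DMSO replicate 1 was the low array of its group. The adjusted p of limma was 0.0765 without the block and 0.00804 with it. Without the block and without DMSO replicate 1 limma called it (adjusted p = 0.00868), but leaving out any other array gave 0.146 to 0.338. The call with the block was lost without replicate 3 in both groups (adjusted p = 0.0969). Over the 6 single arrays left out it was between 3.61-fold and 5.54-fold lower.

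In AT4G33730, as in AT4G30320, replicate 1 was the highest compound array and the lowest DMSO array. Its values (253353_at) were 4.94, 4.68 and 4.76 with the compound, against 5.89, 6.52 and 6.69 with DMSO. The groups did not overlap. On the log2 scale AT4G33730 was at -1.57 (SE 0.21, 95% interval -2.09 to -1.06), with differences of -0.95, -1.84 and -1.93 within replicate numbers 1, 2 and 3. The adjusted p of limma was 0.0610 without the block and 0.00642 with it. Without the block it was 0.00868 without DMSO replicate 1 and 0.166 to 0.290 without any other array. With the block it was 0.0720 without replicate 3 in both groups, where the call was lost.

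AT4G33720, the direct neighbour of AT4G33730 in the gene order, was not called. Its values (253301_at) were 3.94, 3.71 and 4.17 with the compound, against 4.26, 3.53 and 5.29 with DMSO. The DMSO arrays alone spanned more than the compound arrays did, and the groups overlapped. The log2 fold change of -0.42 (SE 0.42, 95% interval -1.43 to 0.59) rested on DMSO replicate 3: without that array it was 0.04. With the block the adjusted p of limma was 0.412.

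The 3 other measured members changed little or unevenly. AT4G25780 (254024_at) stood at 6.28, 5.64 and 5.56 with the compound, against 7.07, 6.44 and 5.55 with DMSO. It was lower by 0.80 in replicates 1 and 2 and level in replicate 3. Its mean difference was -0.53 (SE 0.40), and limma gave adjusted p of 0.999 without the block and 0.160 with it. AT1G50060 (261691_at) read 6.94, 6.29 and 7.04 with the compound, against 7.14, 7.18 and 7.16 with DMSO. Its compound arrays were all below its DMSO arrays, by 0.10 at the closest, and the log2 fold change of -0.40 (SE 0.20) missed the threshold of limma in both fits (adjusted p 0.999, and 0.252 with the block). AT3G19690 (257077_at) lay between 3.37 and 3.51 with the compound and between 3.38 and 3.44 with DMSO, below the lower quartile on all 6 arrays, with a log2 fold change of 0.03 (SE 0.08).

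Taking the 9 genes as they were measured, the compound arrays lay wholly above the DMSO arrays in 2, wholly below them in 3, and overlapped them in 4. Over all probe sets, 9.74% did not overlap, 5.37% wholly above and 4.37% wholly below. Apart from PR-1-LIKE and AT2G19970, the 95% interval of each of the other 7 ended below a 2-fold rise, the highest upper bound being 0.59 on the log2 scale for AT4G33720. For the members near the lower quartile (AT2G19980, AT3G19690 and AT4G33720) that bound holds for the measured values, which RMA compresses near background. Set against the median of the 8 other members on the same array, PR-1-LIKE gained 2.95 on the log2 scale in the compound arrays relative to the DMSO arrays, with 3.23, 2.81 and 2.82 within replicate numbers 1, 2 and 3. That figure holds both the rise of PR-1-LIKE and the lower median of the other genes, and was not tested. The median was taken over levels, so it follows the genes of middle signal. On compound array 1 and DMSO array 1 it lay midway between AT4G30320 and AT4G33730, the members that fell most. It was 5.12 and 6.20 there, whereas the median log2 fold change of the 9 genes was -0.40. The gain of 2.95 is therefore not the contrast with a typical member.

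The same comparison was made for the CAP family at large, a list of 22 loci that includes the 10 members. Of these, 19 had a single-gene probe set. Without the block limma called 1 of the 19 up and 0 down (0.343% of all probe sets), with 8 at an unadjusted p below 0.05 (5.36% of all probe sets). With the block it called 3 up and 4 down and did not call 12, where it called 1.83% of all probe sets up and 1.97% down. These counts include the members, which were chosen with these arrays in view, so nothing is read from their share either. Of the 10 measured genes outside the members, limma called 0 without the block, and 1 up and 2 down with it. The 3 genes added by the wider list were AT5G66590, which rose, and AT4G25790 and AT4G07820, which fell. The median log2 fold change of the 19 was 0.01, equal to that of all probe sets at this rounding, with 10 means higher and 9 lower with the compound.

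AT4G25790 had the lowest log2 fold change of the 19. Probe set 254025_at read 5.55, 5.34 and 5.22 with the compound, against 6.80, 8.28 and 8.08 with DMSO. The groups were apart by 1.25, and DMSO replicate 1 was the lowest DMSO array. Its value was 5.09-fold lower (-2.35 on the log2 scale, SE 0.38). The adjusted p of limma was 0.109 without the block and 0.00994 with it, and without the block it was 0.00265 without DMSO replicate 1 and 0.274 to 0.409 without any other array. With the block the call was lost without replicate 3 in both groups (adjusted p = 0.105). AT4G25790 is the direct neighbour of AT4G25780, described above, which was not called in either fit and whose log2 fold change was -0.53. The difference between these neighbours was not tested.

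AT4G07820 (255160_at) had values of 6.14, 6.76 and 6.76 with the compound, against 7.03, 7.81 and 8.23 with DMSO. Every pair was lower with the compound, by 0.89, 1.05 and 1.47 for replicates 1, 2 and 3. The mean difference was -1.14 with an SE of 0.33 without the block and 0.12 with it (adjusted p of limma 0.519, and 0.00427 with the block). AT5G66590 (247074_at) was the one further riser, at 6.81, 6.68 and 6.74 with the compound, against 6.11, 6.10 and 5.38 with DMSO. The compound arrays were close together and the DMSO spread came from replicate 3. Its log2 fold change was 0.88 (SE 0.21 without the block and 0.15 with it; adjusted p of limma 0.311, and 0.0257 with the block). The call with the block was lost without replicate 1 or replicate 3 in both groups (adjusted p of 0.0726 and 0.0767).

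The other 7 measured CAP genes outside the list had log2 fold changes of -0.13 to 0.20, and none was called in either fit. They were AT1G01310, AT1G50050, AT3G09590, AT4G31470, AT4G33710, AT5G02730 and AT5G26130. In 3 of these all compound arrays lay above all DMSO arrays, as in 5.37% of all probe sets. The gaps were small: 0.02 for AT1G01310, 0.10 for AT1G50050 and 0.03 for AT4G33710. AT1G01310, AT5G02730 and AT5G26130 lay below the lower quartile on all 6 arrays. AT1G50050, the neighbour of AT1G50060, had the highest of these values, 0.20 (SE 0.08; adjusted p of limma 0.879, and 0.243 with the block). AT4G33710, next to AT4G33720, was at 0.16 (SE 0.09). In the 3 groups of neighbouring CAP genes on chromosomes 2 and 4, some genes were called with the block and others were not.

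**Figure D2:**
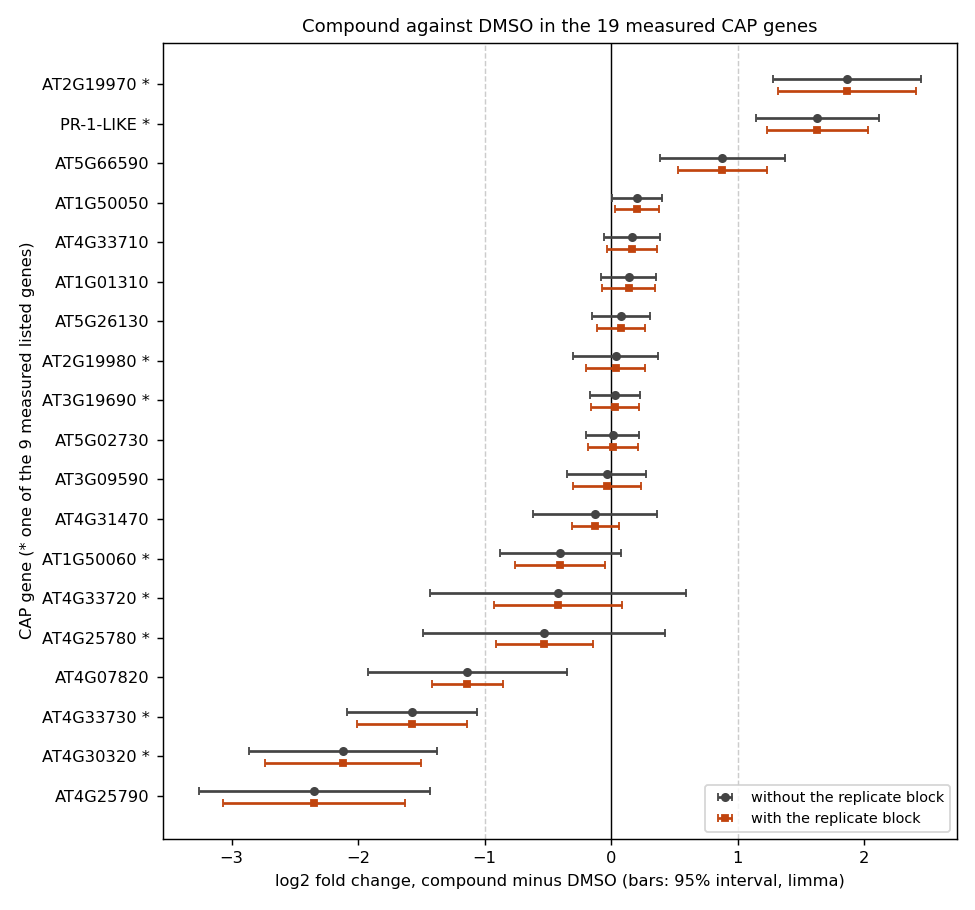
Log2 fold change, compound minus DMSO (horizontal axis), of the 19 measured CAP genes, with 95% intervals from limma without (grey circles) and with the replicate block (orange squares). Dashed lines mark 2-fold changes. AT2G19970 and PR-1-LIKE stand at the top, at 1.86 and 1.63, and AT4G25790, AT4G30320, AT4G33730 and AT4G07820 at the bottom, from -2.35 to -1.14.

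The measured root hair markers were also lower with the compound. EXPA7 and EXPA18, which encode expansins of root hair cells, were the 2 measured genes of a list of 7 root hair markers. EXPA7 read 5.56, 5.36 and 5.45 with the compound, against 6.94, 7.98 and 7.74 with DMSO. EXPA18 read 5.47, 5.42 and 5.45 with the compound, against 6.87, 7.67 and 7.22 with DMSO. As in AT4G30320, AT4G33730, AT4G25790 and AT4G07820, DMSO replicate 1 was the lowest DMSO array and replicate 1 gave the smallest within-number difference. DMSO replicate 1 was also the lowest DMSO array in PR-1-LIKE and AT2G19970, which rose, though not in AT5G66590. A low DMSO replicate 1 is therefore not particular to the genes that fell, and it narrows a fall and widens a rise in that replicate. The log2 fold changes were -2.10 (SE 0.26) for EXPA7 and -1.81 (SE 0.20) for EXPA18. PYK10, a root-abundant beta-glucosidase gene and the 1 measured gene of 8 other root markers, averaged 12.73 ± 0.12 with the compound and 12.82 ± 0.18 with DMSO (SD, n = 3 each). None of 9 leaf and shoot markers had a single-gene probe set in the annotation used, so the shoot part of the labelled tissue was not checked with this list. The arrays read whole seedlings, in which fewer cells of a type and less RNA per cell cannot be told apart. The part of root hair cells in the lower CAP values was not tested.

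**Figure D3:**
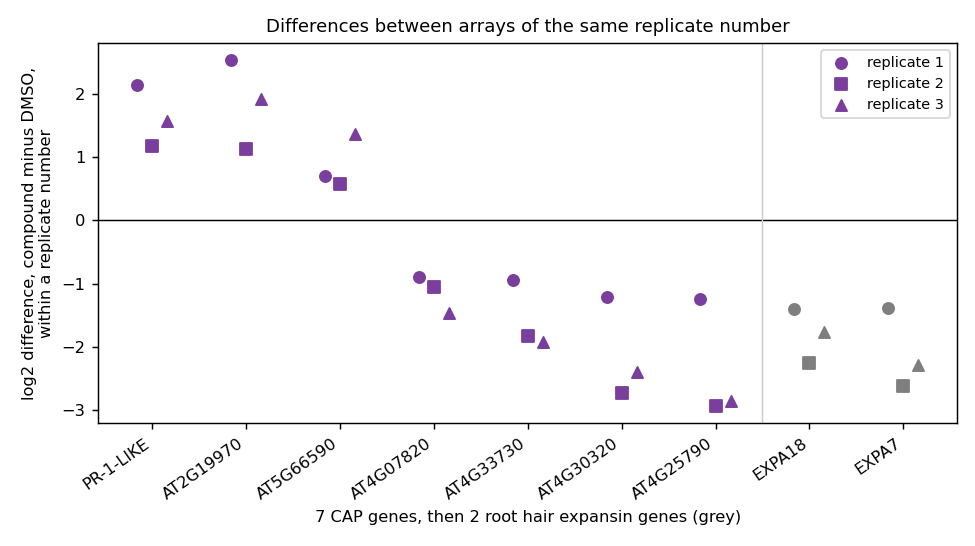
Log2 difference between the compound and the DMSO array of the same replicate number (vertical axis) for the 7 CAP genes called with the replicate block (purple) and the root hair genes EXPA18 and EXPA7 (grey). Marker shapes are replicate numbers. Each gene moves the same way in all 3 pairs, and replicate 1 gives the smallest fall in AT4G07820, AT4G33730, AT4G30320, AT4G25790, EXPA18 and EXPA7.

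PR genes are best known as targets of salicylic acid or of jasmonate and ethylene, so lists of both pathways were set beside the CAP genes. Few of their genes had a single-gene probe set in the annotation used: 2 of 27 on the salicylic acid list and 4 of 20 on the jasmonate and ethylene list. That annotation left 8730 probe sets unnamed, and whether any of them read other genes of these lists was not examined. None was called by limma without or with the block, and none of the 6 had an unadjusted p below 0.05 without it. WRKY53, a transcription factor gene of defence and senescence, had values of 4.38, 5.11 and 4.28 with the compound, against 3.99, 4.59 and 4.08 with DMSO. Every pair was higher with the compound, by 0.39, 0.52 and 0.19, a mean difference of 0.37 on the log2 scale. Its SE was 0.26 without the block and 0.09 with it, and limma gave adjusted p of 0.999 and 0.0817 (unadjusted 0.00428 with the block). GRX480, a glutaredoxin gene induced by salicylic acid, was at -0.14 (SE 0.09). Every pair was lower with the compound, with differences of -0.08, -0.15 and -0.18. Its compound arrays lay below its DMSO arrays by 0.02 at the closest. The thionin gene THI2.1 and the defensin gene LCR67 (PDF1.1) were both at -0.04, with values below the lower quartile on all 6 arrays. The defensin genes PDF1.2b and PDF1.2 were at -0.04 and 0.00, with means of 4.18 to 4.47 in both groups. The PDF1.2b probe set carries the suffix for probes that can bind other transcripts as well, so its value may not be of that gene alone. With most of both lists not tied to a probe set here and these values near background, the counts do not describe the pathways.

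Genes with a pattern like that of PR-1-LIKE were sought by Pearson correlation over the 6 arrays, among 1106 single-gene probe sets with a range of at least 1 on the log2 scale. The correlation is led by the difference between the groups and is a description of these 6 arrays. The 5 highest were HAT2 (r = 0.992), LBD29 (0.986), AT2G19970 (0.983), WES1 (0.981) and CLE44 (0.970). HAT2 encodes a homeodomain-leucine zipper factor, LBD29 a factor of lateral root formation, WES1 (GH3.5) an enzyme that conjugates auxin to amino acids, and CLE44 the precursor of a vascular peptide signal. Their log2 fold changes were 1.14, 1.94, 1.86, 1.84 and 1.63 in that order, where PR-1-LIKE was at 1.63. In all 5, as in PR-1-LIKE, DMSO replicate 1 was the lowest DMSO array. AT2G19970 was the one CAP gene among the 5. The other measured CAP genes with that range were AT5G66590, at r = 0.787 and in place 63, and 6 genes with negative coefficients, from -0.836 for AT4G33730 to -0.287 for AT4G33720.

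**Figure D4:**
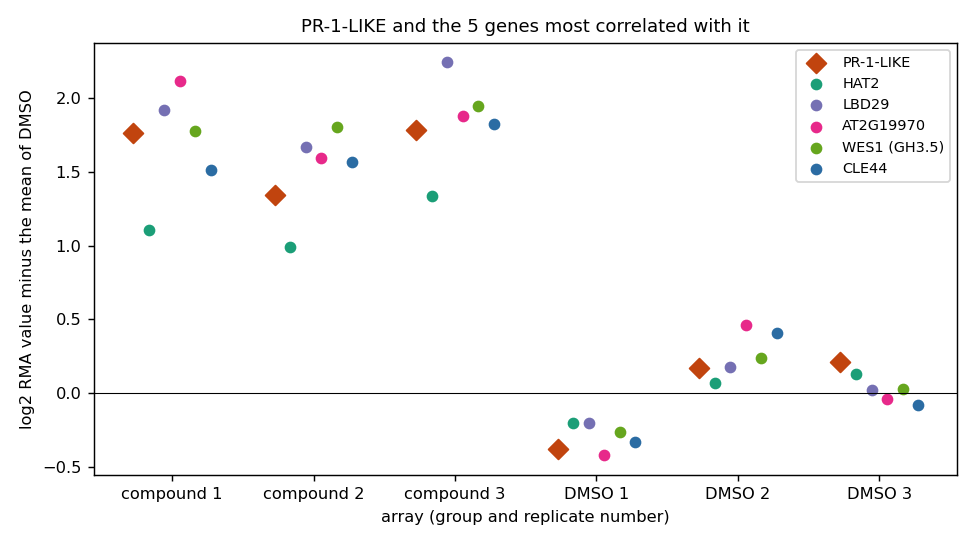
Log2 RMA value minus the gene's own DMSO mean (vertical axis) on the 6 arrays, for PR-1-LIKE (diamonds) and the 5 genes most correlated with it (circles). All 6 genes lie near 0 on the DMSO arrays, lowest on DMSO replicate 1, and well above 0 on the compound arrays, with HAT2 the lowest of them there.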

How the data were processed

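The authors deposited log2 expression values per probe set, made with RMA per the submitters' processing notes (version not given in the sources used here). RMA subtracts background, forces the arrays to a common distribution and summarises the probes, so a shift of all transcripts would not show and low values are compressed. Array medians lay between 5.75 and 5.79. The file holds no detection calls, and 6 arrays limit the precision. Of 22810 probe sets, 64 controls were left out. Names came from the platform annotation, matched by gene number to the TAIR10.1 gene table, which also gave neighbours. Each measured CAP gene was read by 1 such probe set. Of the tested probe sets, 503 had several genes and 8730 were unnamed here. Whether any of these read genes counted as not measured was not examined.

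The groups were compared by a linear model with a term for treatment alone (lmFit and eBayes of limma 3.58.1, R 4.3.3), with Benjamini-Hochberg adjustment over all 22746 probe sets, and again with the replicate number as a block. Fold changes are compound minus DMSO on the log2 scale, with moderated standard errors. The steps were tested on simulated data. Across probe sets, deviations from the group means correlated at 0.727, 0.728 and 0.743 for arrays of the same number. These lay above the limit of 0.1 for calling samples paired. Arrays of unlike numbers correlated at -0.426 to -0.275. Deviations within a group cancel out, which makes those values negative on average once same-number arrays correlate, so they are no separate evidence of pairing. The pairing comes from the titles and this check, and the labels do not say what a number shares.

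The members, lists and alternatives were chosen with earlier results of these data known. Named were all measured CAP genes, list genes called or with the smallest p, the measured tissue markers and the 5 genes most like PR-1-LIKE. Protein and promoter sequences were not used here.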

Additional observations from a re-analysis of the deposited data

How the results depend on the processing

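The log2 fold change of PR-1-LIKE kept its direction in every alternative run. Without the block and 1 array it ran from 1.44 to 1.77, and limma called it in none of the 6 fits. With the replicate block it was called, also without replicate 1 or 2 in both groups, but not without replicate 3 in both groups (1.66, adjusted p = 0.0573). Limma called 1 of the 9 members in the fit without the block. It called 4 with the replicate block, with the number as a random block, with only probe sets of a mean of at least 4, and with trend and robust variances, and 2 after centring the arrays on their medians. Leaving out 1 array gave 0 to 2, where the same fits called 0 to 76 of all probe sets. The other totals were 865 with the replicate block, 491 with the random block, 90 with the mean filter, 94 with trend and robust variances and 79 with centred arrays, against 78. With the block and without a pair the counts were 4, 4 and 1 for replicates 1, 2 and 3, the last being AT4G25780. For the 19 genes of the family the count was 1 without the block. It was 7 with the replicate block and with the random block, 4 with the mean filter and with trend and robust variances, 2 with centred arrays, 0 to 3 without 1 array, and 6, 7 and 2 with the block and without replicates 1, 2 and 3 in both groups. PR-1-LIKE against the median level of the other members ran from 2.79 to 3.13 without 1 array, with the limit of that median given above. Among uncalled genes, values of -0.13 to 0.03 changed sign, and so did AT4G33720 (-0.42) without DMSO replicate 3. With the block and without replicate 2 in both groups, AT2G19980 was at -0.0653, AT3G09590 at 0.0767, AT3G19690 at -0.0207 and AT5G02730 at -0.0022. Without replicate 1 AT3G09590 was at 0.0093, and without replicate 3 AT5G02730 was at -0.0487. Without 1 array and without the block the ranges were -0.0969 to 0.112 for AT2G19980, -0.114 to 0.0669 for AT3G09590, -0.0061 to 0.0665 for AT3G19690, -0.272 to 0.0424 for AT4G31470, -0.837 to 0.0442 for AT4G33720 and -0.0286 to 0.0524 for AT5G02730. The cause was not tested. No gene had several single-gene probe sets, so averaging them was not run.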

Other observations

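Some genes that were not called without or with the block stood high or low in the same replicate number of both groups. AT4G25780 was highest in replicate 1 of both groups, at 6.28 with the compound and 7.07 with DMSO, and its standard error was 0.40 without the block and 0.16 with it. AT4G33720 was highest in replicate 3 and lowest in replicate 2 of both groups, at 4.17 and 3.71 with the compound and 5.29 and 3.53 with DMSO. WRKY53 was highest in replicate 2 of both groups, at 5.11 with the compound and 4.59 with DMSO.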
